A study of Mus musculus with 4 samples.

Results

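The 5 genes described here encode the D-type cyclins, Ccnd1, Ccnd2 and Ccnd3, and the kinases they activate, Cdk4 and Cdk6. They were taken by symbol from the 55357 genes of the deposited single-cell RNA-seq matrices, and they were chosen by their measured levels across cell groups, cycling states and treatments, so those values are given as a description. The libraries hold LSK cells, a bone marrow fraction named for lacking lineage markers while carrying Sca-1 and Kit, in which stem cells and early progenitors are enriched. All mice were WT. One group received Yoda1, an agonist of the mechanically gated ion channel Piezo1, by the intraperitoneal route over 2 weeks, and the control group received vehicle. The protocol text on Yoda1 is the same for all 4 libraries, so the groups rest on the sample titles and the treatment label. Each group had 2 libraries, called control 1, control 2, Yoda1 1 and Yoda1 2, and values listed per library follow that order. Nothing in the labels ties a library to its own mouse, so the spread between libraries may be technical; dose, strain, age and number of mice are not given there.

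D cyclins are short-lived proteins that accumulate when growth factors and cytokines signal to a cell. They bind Cdk4 or Cdk6, and the active kinase phosphorylates the retinoblastoma protein and its relatives, which releases E2F transcription factors and lets the cell pass from G1 into S phase. The INK4 proteins (Cdkn2a to Cdkn2d) block the kinases, while the Cip/Kip proteins p21, p27 and p57 (Cdkn1a, Cdkn1b and Cdkn1c) bind the cyclin and kinase complexes. In blood formation the 3 cyclins are used unequally: cyclin D3 is needed for the expansion of B and T cell precursors and acts in erythroid cell division, cyclin D2 answers to cytokines through Stat5, and Cdk6 governs how readily dormant stem cells leave quiescence.

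The genes lie on different chromosomes of GRCm38 (positions of whole genes from GENCODE M21, 1-based). Ccnd1 spans chr7:144929931-144939925 on the minus strand. Ccnd2 spans chr6:127125162-127152193 on the minus strand, and Ccnd3 spans chr17:47505051-47599691 on the plus strand. Cdk4 is a compact gene of 4387 bases at chr10:127063534-127067920, and Cdk6 covers 189524 bases at chr5:3341485-3531008, both on the plus strand. Each of the 5 overlaps at least 1 gene on the opposite strand. Cdk4 shares 641 bases with Tspan31, which stood at 46.2 to 50.5 CPM (UMIs of a gene over all UMIs of the same cells, times 1e6), and Ccnd3 shares 361 bases with Bysl, at 20.7 to 36.3 CPM. Ccnd1 shares 1771 bases with LTO1, at 11.3 to 13.9 CPM, and Cdk6 shares 8013 bases with the antisense gene Gm17590, at 6.07 to 15.2 CPM. Whether the counting used strand is not given in the sources used here, so reads of such pairs may not have been told apart. The processed pseudogene Ccnd3-ps held 1 UMI in all 4 libraries together.

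RefSeq promoter windows for GRCm38.p6 were at hand for 3 of the 5 members, Cdk4, Cdk6 and Ccnd3 (4 windows). Each window was read over the 250 bases before the annotated start. The Cdk4 window is shown because Cdk4 was the member with the higher level in cycling cells in all 4 libraries, and because it is dense in the E-box CACGTG, the letters bound by Myc family factors. It lies at chr10:127063285-127063534 on the plus strand and reads, 5′ to 3′, with each CACGTG in capitals:
Cdk4: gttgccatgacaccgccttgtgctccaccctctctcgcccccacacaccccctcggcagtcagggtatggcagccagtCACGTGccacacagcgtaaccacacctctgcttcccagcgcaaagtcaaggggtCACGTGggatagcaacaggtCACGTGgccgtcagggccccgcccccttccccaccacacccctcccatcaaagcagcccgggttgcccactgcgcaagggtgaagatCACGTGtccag
This window holds 4 copies of CACGTG, which reads the same on both strands. The window of Cdk6 holds 1 copy and both windows of Ccnd3 hold 0. Over all 32851 windows of the same length, 6.02% held at least 1 copy, 20 held 3 or more and 7 held 4 or more. The E2F motif, searched as TTTGGCGC or TTTCGCGC on both strands, was in 0.654% of all windows and in none of these 4. A match of letters is a description and not a measured binding site.

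After filtering, the libraries held 7620, 7822, 9122 and 9756 cells and between 89058521 and 110493533 UMIs, with a median of 7311 UMIs per cell in Yoda1 2 and 9410.5 to 11220 in the others. Pairs of libraries shared 14 to 30 barcodes. Replicates of a group differed far beyond counting noise, with a chi-square per degree of freedom of 106 between the controls and 230 between the Yoda1 libraries. Kit stood at 98.4 to 156 CPM and Ly6a, which encodes Sca-1, at 97.9 to 262 CPM, with the highest Ly6a in Yoda1 1. The 6 endothelial markers summed to 53.9 to 79.1 CPM, from Pecam1 at 43.5 to 56.4 down to Cdh5 at no more than 0.0552. Emcn, of the same list, stood at 25.7 CPM in Yoda1 2 and at 5.45 to 9.18 in the others. The 6 stromal markers summed to 22.6 to 33.0 CPM, from Pdgfrb at 22.1 to 31.9 down to Col3a1 at no more than 0.0291. The 6 mature neutrophil markers summed to 208, 105, 53.6 and 67.9 CPM. Among them S100a8 stood at 151, 78.1, 41.8 and 46.9 CPM and Ltf at no more than 0.0883. The part of cells with such markers in the results below was not tested.

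Cells were placed in groups by 12 lists of lineage markers, and 10 groups with at least 50 cells in every library were used. Of 34320 cells, 21124 fell into these 10 groups and 12603 (36.7%) into none. Names carry "-like" because they rest on markers alone. The mix differed between libraries: HSC-like cells made up 4.08%, 5.61%, 6.62% and 24.8% of cells, monocyte-like cells 9.17%, 7.43%, 13.1% and 0.964%, and erythroid-like cells 12.98%, 6.48%, 7.74% and 1.09%. Yoda1 2 therefore held many HSC-like cells and few monocyte-like and erythroid-like cells. Its shares of granulocyte-monocyte-like, mast and basophil-like, early megakaryocyte-erythroid-like and megakaryocyte-like cells were also the lowest of any library. Not all groups beyond HSC-like cells were scarce there. Its shares of early lymphoid-myeloid-like cells, 18.03%, and dendritic-like cells, 2.44%, were the highest. Its share of T, NK and innate lymphoid-like cells lay within the range of the other libraries. In the T, NK and innate lymphoid-like group the markers that passed were Nkg7, Klrd1, Tcf7 and Gata3, and the 3 Cd3 genes did not pass, so it is a mixed group. In values summed over all cells, a change in this mix and a change in RNA per cell cannot be told apart.

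Ccnd1, cyclin D1, had the widest range over the cell groups of any member and was highest in dendritic-like cells. This group rests on the MHC class II genes Cd74, H2-Aa, H2-Ab1 and H2-Eb1, which B cells also express, as the other 2 markers, Siglech and Cd209a, did not pass and Igkc was among its top 10 genes. Dendritic-like cells stood at 119.5, 119, 111 and 92.7 CPM (110.4 ± 12.5, mean ± SD over 4 libraries, as in the values that follow). They were the highest group in all 4 libraries and their range did not overlap that of the next group. Monocyte-like cells, marked by Irf8, Csf1r and Ly86, followed at 57.3, 51.3, 91.3 and 72.3 CPM. Megakaryocyte-like cells stood at 43.4 ± 9.68 CPM, early lymphoid-myeloid-like cells at 32.3 ± 7.68 and HSC-like cells at 25.3 ± 8.07. These neighbours overlapped in range, although each was above the next in all 4 libraries. At the lower end, mast and basophil-like (10.5 ± 4.59), granulocyte-monocyte-like (9.77 ± 3.71) and erythroid-like cells (9.45 ± 1.41) could not be ordered beyond their spread. Dendritic-like over erythroid-like cells was an 11.7-fold ratio of means. On the log2(CPM + 1) scale the ratio of highest to lowest group was 3.41 for Ccnd1, above that of 94.2% of the 8466 genes whose mean reached 10 CPM, with a median of 0.94.

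At equal depth, Ccnd1 was seen in a larger share of dendritic-like cells too. With every cell thinned to 3000 UMIs, 28.9%, 24.1%, 17.9% and 19.2% of dendritic-like cells held a Ccnd1 UMI, against 3.39%, 2.05%, 3.26% and 0.980% of erythroid-like cells. The exact (Clopper-Pearson) 95% interval in control 1 was 21.7% to 36.8% for the former and 2.33% to 4.75% for the latter. Without thinning the shares in control 1 were 59.9% and 12.5%. Such intervals cover counting error only, and stray RNA in the droplets can give UMIs to cells that do not express a gene. The erythroid-like share is given for comparison and is not a measure of stray RNA. Mast and basophil-like cells, also thinned, stood at 2.62%, 1.79%, 2.65% and 2.04%. Dendritic-like cells were 1.81% to 2.44% of each library.

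Ccnd2, cyclin D2, was spread more evenly, with the undifferentiated and megakaryocytic groups at the top. Early lymphoid-myeloid-like cells, marked by Flt3 and Dntt, stood at 360, 293, 413 and 279 CPM. Megakaryocyte-like cells were at 321 ± 27.5 CPM, HSC-like cells at 291 ± 42.4 and early megakaryocyte-erythroid-like cells at 279 ± 26.0. The range of each of these overlapped that of its neighbour. Granulocyte-monocyte-like (162 ± 29.4) and mast and basophil-like cells (160.4 ± 24.4) were lowest, and the ratio of highest to lowest group was 2.10-fold. Yoda1 2 was the lowest library in erythroid-like cells, at 128 CPM against 197 to 242 CPM in the other 3.

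Ccnd3, cyclin D3, was highest in megakaryocyte-like cells among the 10 groups, at 246, 190.5, 201 and 199 CPM. That group was the highest in all 4 libraries, and granulocyte-monocyte-like cells, at 94.6, 73.6, 78.1 and 77.8 CPM, were the lowest in all 4, a 2.58-fold difference of means. T, NK and innate lymphoid-like cells (187 ± 25.6) and early megakaryocyte-erythroid-like cells (184 ± 19.96) came next and overlapped.

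B-lineage-like cells, marked by Ebf1, Pax5, Vpreb1 and Cd79a, were too few to count among the 10 groups, with 17, 136, 5 and 105 cells, yet they held by far the most Ccnd3. The level was 1415, 913, 244 and 1009 CPM, where the third value rests on 15 UMIs from 5 cells. The 136 cells in control 2 and the 105 in Yoda1 2 carried 11.9% and 10.9% of all Ccnd3 UMIs of their libraries from 1.72% and 1.79% of all UMIs. By the measure used below, 117 of the 136 and 94 of the 105 were cycling. Without these cells the level of Ccnd3 over all cells went from 133 to 119 CPM in control 2 and from 166 to 151 in Yoda1 2, and from 141 to 138 in control 1. Ccnd1 stood at 4.19, 1.95, 0 and 14.8 CPM in the same cells, from 1, 3, 0 and 24 UMIs, with Yoda1 2 the highest.

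Cdk4 was the most even of the 5. Monocyte-like cells stood at 481, 484, 452 and 468 CPM and dendritic-like cells at 329, 240.0, 314 and 330 CPM, which was the lowest mean (303 ± 42.7). The ratio of these means was 1.55-fold, and 24.8% of the 8466 genes had a smaller range over the groups. Erythroid-like cells were second, at 456 ± 43.6 CPM, and HSC-like cells last but one, at 312 ± 38.6. Neighbouring groups overlapped throughout.

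Cdk6 was highest in early megakaryocyte-erythroid-like cells, marked by Gata2, Gata1 and Apoe, at 993, 870.5, 799.6 and 668 CPM. This group led in all 4 libraries, ahead of mast and basophil-like cells at 783, 614, 681 and 432 CPM. Dendritic-like cells, at 447, 301, 365 and 293 CPM, were the lowest in all 4. The ratio of the extremes was 2.37-fold. HSC-like cells, in which Cdk6 protein is known to set the pace of leaving quiescence, stood at 435 ± 77.9 CPM, next to last by mean. Their range overlapped those of erythroid-like (443 ± 73.5) and granulocyte-monocyte-like cells (445 ± 68.8), so the rank is not beyond the spread. In each of the 10 groups control 1 had the highest Cdk6.

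**Figure D1:**
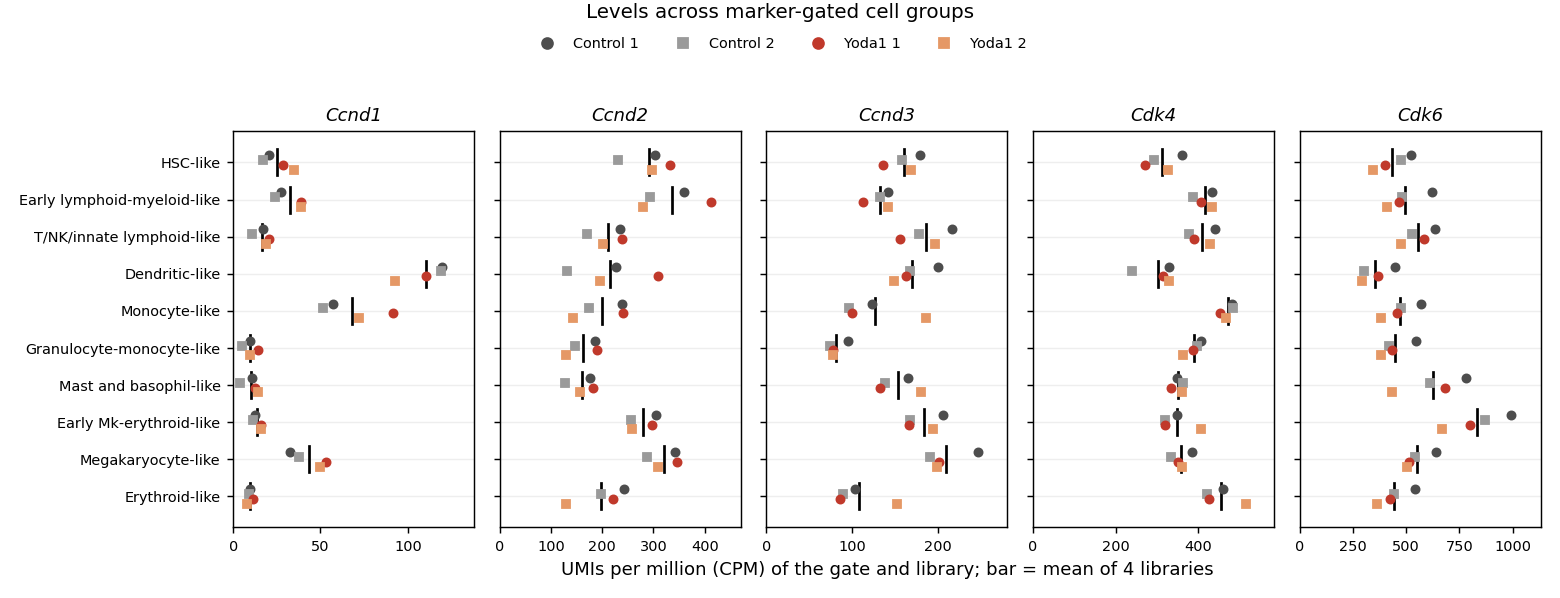
Level of each gene (CPM, from the group's UMIs in a library, horizontal axis) in the 10 marker-gated groups, with 1 point per library and a bar at the mean of the 4 libraries. Ccnd1 stands out in dendritic-like and monocyte-like cells, Cdk6 in early megakaryocyte-erythroid-like cells, and Cdk4 varies least.

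UMIs of different genes cannot be compared as levels, since capture and length differ, but the share a gene takes of its family's UMIs can be followed from group to group. Ccnd1 took 22.6% ± 4.07 of the D cyclin UMIs in dendritic-like cells and 17.2% ± 3.15 in monocyte-like cells, against 3.01% ± 0.40 in erythroid-like and 5.26% ± 1.38 in HSC-like cells. The share of Ccnd3 was 47.5% ± 5.07 in mast and basophil-like cells and 45.1% ± 5.30 in T, NK and innate lymphoid-like cells, against 26.7% ± 4.82 in early lymphoid-myeloid-like cells. In B-lineage-like cells Ccnd3 made up 86.4%, 84.7% and 84.4% of the D cyclin UMIs in control 1, control 2 and Yoda1 2. In Yoda1 1 it made up 30.6%, from 49 D cyclin UMIs in 5 cells, and Ccnd2 made up 69.4%. Between the kinases, Cdk6 took 70.2% ± 5.47 in early megakaryocyte-erythroid-like cells and 49.1% ± 5.46 in erythroid-like cells. Over all cells the share of Cdk6 was 59.7%, 57.4%, 55.8% and 50.4%.

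**Figure D2:**
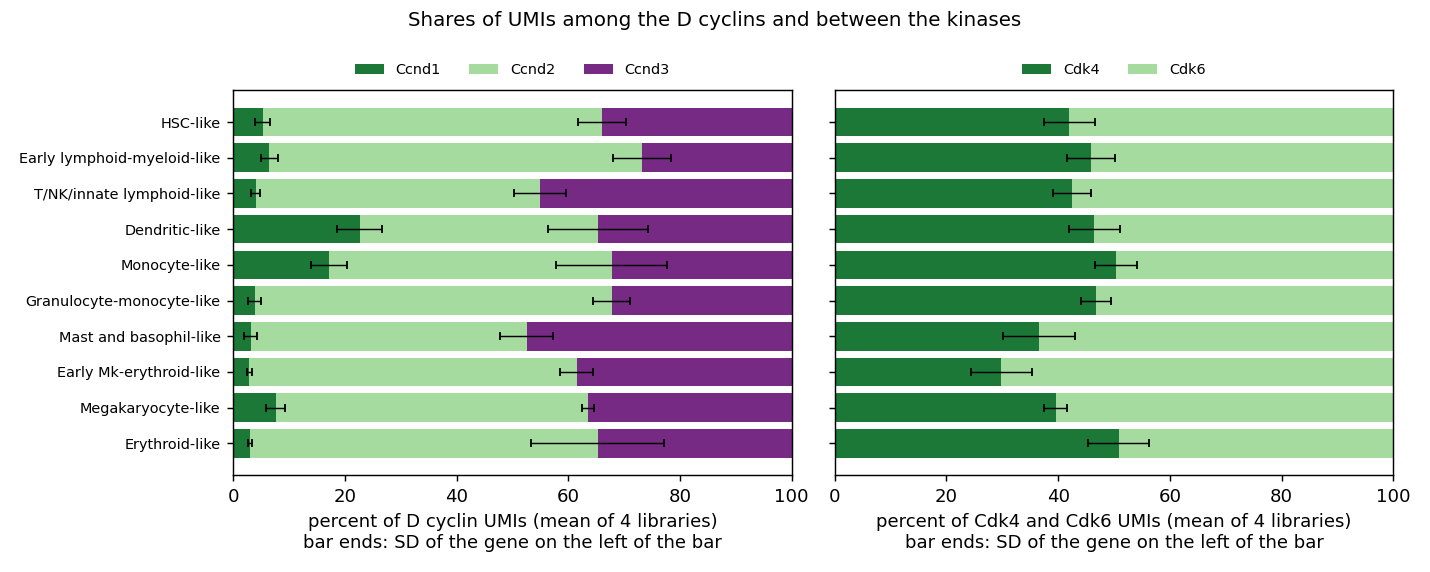
Percent of the summed Ccnd1, Ccnd2 and Ccnd3 UMIs (left) and of the summed Cdk4 and Cdk6 UMIs (right) taken by each gene in the 10 groups, as the mean of 4 libraries with SD bars for the gene to the left of each bar. Ccnd1 takes 22.6% in dendritic-like cells and 3.01% in erythroid-like cells.

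Cells were called cycling with at least 2 UMIs of the proliferation genes Mki67 and Top2a together and non-cycling with 0. This gave 4772, 3825, 5607 and 3817 cycling cells and 1840, 2858, 2233 and 4493 non-cycling cells. Cycling cells were deeper, with median UMIs of 12241 to 15077.5 against 5603 to 6023.5. Non-cycling cells made up 24.1%, 36.5%, 24.5% and 46.1% of cells, and 40.3%, 52.3%, 40.7% and 58.3% after thinning to 3000 UMIs. The class means only that neither gene was caught. Cell-cycle phase was not called, so it may hold proliferating cells in G1 and is not a set of quiescent cells. Ccnd2 was the member that was lower in cycling cells throughout: 337, 265, 352 and 311 CPM in non-cycling cells and 232, 174, 240.2 and 207 CPM in cycling cells. Cdk4 was the reverse, at 360, 326, 320 and 322 CPM in non-cycling cells and 439, 419.8, 414 and 451 CPM in cycling cells. In both genes all 4 libraries moved the same way and the 2 states did not overlap.

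In the edgeR fit with library as a block, the log2 difference between cycling and non-cycling cells was -0.40 ± 0.04 (SE) for Ccnd2 and 0.55 ± 0.04 for Cdk4. Over 13 alternative settings these ranged from -0.56 to -0.37 and from 0.31 to 0.58. That fit called 2 of the 5 members at an adjusted p of 0.05, 1 higher and 1 lower, where it called 60.1% of 16064 genes, 30.9% higher and 29.3% lower. On plain CPM, 22.7% of these genes were higher in all 4 libraries and 47.5% lower. The members had been chosen with this contrast in view and nothing is read from the count.

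For the other 3 members the direction depended on scaling or on a library. The TMM normalization in edgeR placed the difference 0.17 higher on the log2 scale than plain CPM, with medians over 8571 genes of 0.09 and -0.08. Ccnd1 was at 0.03 ± 0.11 in edgeR and at -0.13 on plain CPM, with 2 libraries higher and 2 lower in cycling cells, and at -0.34 in edgeR when cells were thinned to 3000 UMIs. Ccnd3 was at 0.06 ± 0.05 in edgeR and -0.11 on plain CPM. Cdk6 was at 0.18 ± 0.08 in edgeR and 0.01 on plain CPM, with 1 library higher, Yoda1 2, and 3 lower. Its level in Yoda1 2 was 340.2 CPM in non-cycling and 454 CPM in cycling cells, while the other 3 libraries went from 517 to 699.7 CPM down to 498 to 615 CPM.

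**Figure D3:**
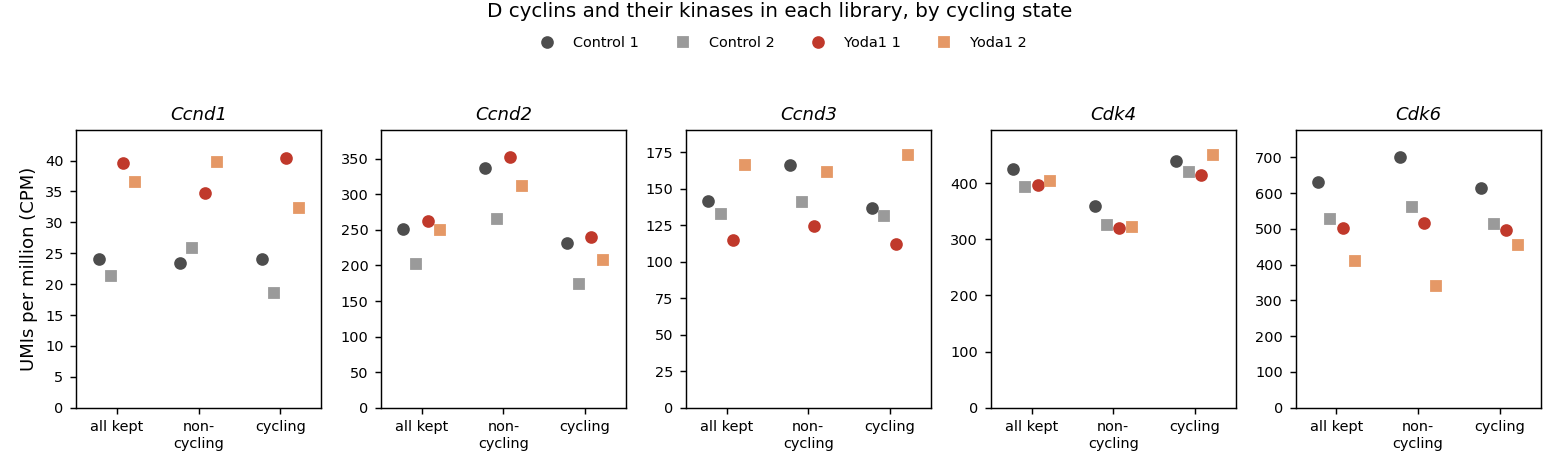
Level of each gene (CPM, vertical axis from 0) in each library over all kept cells, non-cycling cells and cycling cells, with 1 point per library and no error bars. Ccnd2 is lower and Cdk4 higher in cycling cells in all 4 libraries, and both Yoda1 libraries lie above both controls for Ccnd1.

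The same split within the cell groups kept these 2 patterns. In the 7 groups with at least 20 cells of each state in every library, Ccnd2 was lower in cycling cells in all 4 libraries in 6 groups, with log2 ratios of means from -0.80 in early megakaryocyte-erythroid-like cells to -0.27 in early lymphoid-myeloid-like cells. The exception was mast and basophil-like cells, where 3 of 4 libraries were lower. Cdk4 was higher in all 4 libraries in 6 of the 7 groups, from 0.16 to 0.62, and in 3 of 4 libraries in megakaryocyte-like cells, at 0.02. All values of this split are plain CPM, on which 47.5% of genes over all cells were lower in all 4 libraries and 22.7% higher. The shares of all genes within each group are not given here, so nothing is read from these counts of groups. In HSC-like cells Cdk4 went from a mean of 260.4 CPM in non-cycling to 374 CPM in cycling cells, and Ccnd2 from 328 to 225 CPM. Ccnd3 moved one way in all 4 libraries in 0 of the 7 groups. Cdk6 was higher in cycling HSC-like cells (506 against 387 CPM) and early lymphoid-myeloid-like cells (541 against 427 CPM) in all 4 libraries, and lower in cycling megakaryocyte-like cells (539 against 593 CPM) in all 4. The last difference, -0.14 in log2, is smaller than the 0.17 between TMM and plain CPM over all cells.

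At equal depth the members followed the proliferation markers in different shapes. With every cell thinned to 3000 UMIs and sorted by its Mki67 and Top2a UMIs, Ccnd2 went from 303 ± 34.3 CPM in cells with 0 to 263 ± 34.1 with 1, 213 ± 32.8 with 2 to 3, and 187 ± 54.3 with 8 or more. Ccnd1 stayed at 31.7 ± 8.68, 32.6 ± 10.3 and 31.7 ± 10.1 CPM over the first 3 classes and stood at 18.1 ± 8.005 in cells with 4 to 7 and 15.7 ± 3.46 with 8 or more. Cdk4 peaked in the middle, at 344 ± 17.7, 403 ± 21.5, 436 ± 25.0, 412 ± 35.5 and 335 ± 32.0 CPM. Pcna, the sliding clamp of DNA polymerase, had that shape too and stood at 170 ± 19.9, 313 ± 50.6 and 184 ± 30.3 CPM with 0, 2 to 3 and 8 or more. The mitotic cyclin Ccna2 instead rose through all classes, from 15.8 ± 7.57 to 189 ± 22.4 CPM. Cdk6 was higher with 8 or more than with 0 in all 4 libraries, going from 677 to 756, from 559 to 578, from 495 to 661 and from 344 to 499.6 CPM.

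Ccnd3 appeared to climb with the marker count in control 2, from 138 CPM in cells with 0 to 211 CPM with 8 or more. Leaving out B-lineage-like cells, this became 137 and 108 CPM. In Yoda1 2 the value with 8 or more was 172 CPM with B-lineage-like cells and 129 CPM without. In control 1 Ccnd3 went from 158 to 195 CPM, and from 157 to 176 CPM without B-lineage-like cells. In Yoda1 1 it stayed at 129 and 128 CPM, with or without such cells. Groups were assigned anew in the thinned cells, which gave 19, 136, 27 and 145 B-lineage-like cells. The mean over libraries without them was 147 ± 16.2 CPM with 0 and 135 ± 28.9 with 8 or more.

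**Figure D4:**
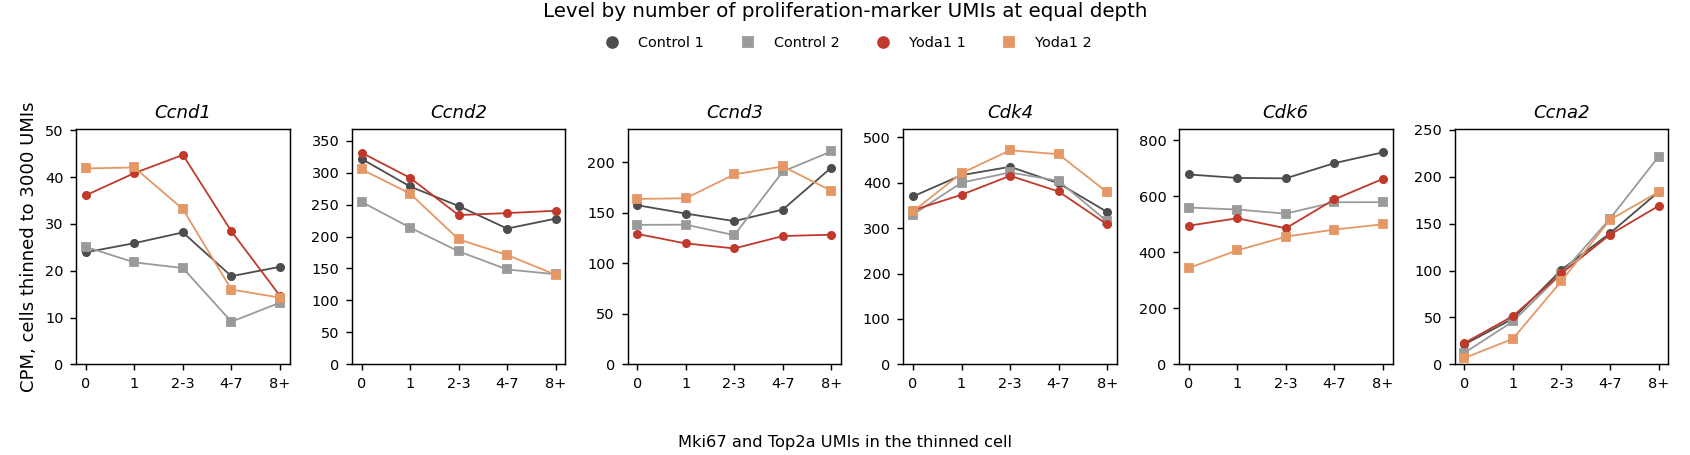
Level (CPM in cells thinned to 3000 UMIs, vertical axis from 0) of the 5 genes and of Ccna2 in cells sorted by their Mki67 and Top2a UMIs, with 1 line per library. Ccnd2 declines, Cdk4 peaks in the middle classes, Ccnd1 is lower in the upper 2 classes, and Ccna2 climbs throughout.

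The comparison of Yoda1 with control asked whether these genes differed with Yoda1 treatment, and the activity of Piezo1 itself was not read here. Ccnd1 was higher in both Yoda1 libraries, at 24.1, 21.3, 39.6 and 36.5 CPM over all cells, a ratio of means of 1.68, and the groups did not overlap. Cdk6 was lower, at 630, 528, 501 and 411 CPM, again without overlap. Ccnd2 (252, 202, 262 and 249 CPM), Ccnd3 (141, 133, 115 and 166 CPM) and Cdk4 (424.6, 392.3, 397.6 and 403.9 CPM) overlapped between groups, and for Ccnd3 the lowest and the highest library were the 2 Yoda1 libraries. The edgeR log2 fold changes were 0.70 ± 0.20 (SE) for Ccnd1, 0.13 ± 0.23 for Ccnd2, -0.03 ± 0.20 for Ccnd3, -0.07 ± 0.21 for Cdk4 and -0.38 ± 0.26 for Cdk6. Leaving out each library in turn, Ccnd1 ranged from 0.52 to 0.87 and Cdk6 from -0.67 to -0.14, while the other 3 crossed 0.

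None of the 5 was called. Both Yoda1 libraries were above both controls in 9.4% of 18182 genes and below both in 9.95%, so 1 member in each direction is near this background. edgeR's quasi-likelihood test called 0 genes (0%) at an adjusted p of 0.05, while 309 had an unadjusted p under 0.05 and DESeq2 called 5. The count rested on single libraries: without Yoda1 1 edgeR called 938 genes, without Yoda1 2 it called 209, without control 2 it called 3 and without control 1 it called 0.

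A second summary held the weights of the groups equal. It gives the scarce dendritic-like cells, in which Ccnd1 was highest and its difference had the opposite sign, the same weight as any other group, and it leaves out ungated cells. With the 10 groups weighted equally in every library, Ccnd1 stood at 31.7, 28.9, 39.7 and 35.5 CPM, and the log2 ratio of means was 0.31. The same weighting gave -0.29 for Cdk6, at 629, 515, 512 and 426 CPM, and between -0.04 and 0.07 for the other 3. This weighting was added after the values had been seen.

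Within states the pattern over the 5 genes was similar. In non-cycling cells the level of Ccnd1 was 23.5, 25.9, 34.8 and 39.8 CPM, and its log2 fold change was 0.58 ± 0.14. Cdk6 stood at 699.7, 561, 517 and 340.2 CPM (-0.56 ± 0.27). Ccnd1 was higher without overlap, where 14% of 14704 genes were, and Cdk6 and Cdk4 were lower without overlap, where 13.2% were. In cycling cells Ccnd1 stood at 24.1, 18.5, 40.5 and 32.3 CPM (0.74 ± 0.24) and Cdk6 at 615, 513, 498 and 454 CPM (-0.28 ± 0.22). Of 17138 genes in cycling cells, 10.2% were higher without overlap and 10.8% lower. edgeR called 0 genes (0%) in either state, with 492 and 326 at an unadjusted p under 0.05, and DESeq2 called 12 and 6. Without Yoda1 1 edgeR called 232 genes in non-cycling and 826 in cycling cells, and without Yoda1 2 it called 94 and 160.

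The test of treatment by state also called 0 of 17104 genes (0%) in edgeR, with 635 at an unadjusted p under 0.05 and 4 called by DESeq2. The largest member estimate was that of Cdk6, whose log2 fold change was 0.32 ± 0.12 nearer to 0 in cycling than in non-cycling cells. It ranged from 0.11 to 0.49 when each library was left out. For Ccnd1 the difference was 0.16 ± 0.22 and for Ccnd2 -0.02 ± 0.10. Without Yoda1 1 this test called 266 genes, without control 1 it called 24, without Yoda1 2 it called 11 and without control 2 it called 5. The share of cycling cells was 62.6%, 48.9%, 61.5% and 39.1%, lower by 5.47 percentage points in Yoda1, with an exact two-sided permutation p of 0.667 where the smallest possible is 0.333. Without control 1 the difference was 1.40 points and without Yoda1 2 it was 5.70, both higher in Yoda1. After thinning the shares were 39.5%, 29.7%, 39.6% and 26.5%.

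Within the cell groups, Ccnd1 was higher in Yoda1 in groups from several lineages and lower in the group where it was most abundant. HSC-like cells stood at 20.4, 17.1, 28.7 and 34.9 CPM (0.80 ± 0.19 in log2 fold change), early lymphoid-myeloid-like cells at 27.5, 24.1, 38.9 and 38.8 CPM (0.64 ± 0.16), and megakaryocyte-like cells at 32.7, 37.9, 53.2 and 49.7 CPM (0.58 ± 0.14). Monocyte-like cells were at 0.65 ± 0.18 and granulocyte-monocyte-like cells at 0.79 ± 0.29. With each library left out in turn, the latter ranged from 0.40 to 1.33. Dendritic-like cells were at -0.28 ± 0.17 and erythroid-like cells at 0.15 ± 0.22. Granulocyte-monocyte-like cells held 0.847% and erythroid-like cells 0.545% of the Ccnd1 UMIs of Yoda1 2, so both rest on few UMIs in that library. Mast and basophil-like cells (0.86 ± 0.46) rest on 13 to 37 Ccnd1 UMIs per library and T, NK and innate lymphoid-like cells (0.59 ± 0.33) on 17 to 32. These values moved when cells were thinned to 3000 UMIs: Ccnd1 was then at 1.22 in HSC-like, 1.15 in early megakaryocyte-erythroid-like and 0.08 in megakaryocyte-like cells. In erythroid-like cells Ccnd1 turned to -0.28 without Yoda1 1.

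Ccnd1 was higher without overlap in 8 of 10 groups. The share of all genes that were so was 12.2% in HSC-like, 10.9% in early lymphoid-myeloid-like, 14.4% in T, NK and innate lymphoid-like, 10.2% in monocyte-like and 9.03% in granulocyte-monocyte-like cells. It was 12.5% in mast and basophil-like, 14.8% in early megakaryocyte-erythroid-like and 12.1% in megakaryocyte-like cells. In dendritic-like cells Ccnd1 was lower without overlap, where 16% of genes were. The groups come from the same 4 libraries and are not independent of each other, so the 8 groups are no separate replicates.

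Cdk6 had a negative log2 fold change in all 10 groups, from -0.40 ± 0.14 in HSC-like to -0.09 ± 0.17 in T, NK and innate lymphoid-like cells. Leaving out control 1 or Yoda1 2 turned Cdk6 to 0.07 in T, NK and innate lymphoid-like cells, and leaving out control 1 turned it to 0.06 in dendritic-like cells. It was lower without overlap in 6 groups, where the share of all genes was 15% in HSC-like, 17.8% in early lymphoid-myeloid-like, 18.3% in monocyte-like, 18.5% in early megakaryocyte-erythroid-like, 18% in megakaryocyte-like and 20.3% in erythroid-like cells. In HSC-like cells it stood at 521, 475, 400.4 and 345 CPM. Ccnd2 overlapped in all 10 groups. Cdk4 was lower without overlap in monocyte-like and granulocyte-monocyte-like cells (17.1% of genes in the latter), and Ccnd3 in dendritic-like cells, at 199.9, 168, 163 and 149 CPM. edgeR called none of the 5 members in any group. It called 0.084% of genes in T, NK and innate lymphoid-like cells (8 of 9526), 0.00944% in dendritic-like cells (1 of 10588) and 0.0242% in monocyte-like cells (3 of 12393), and 0% in the other 7 groups. The sum of 12 calls was 805 without Yoda1 1, 1182 without Yoda1 2, 37 without control 1 and 39 without control 2.

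**Figure D5:**
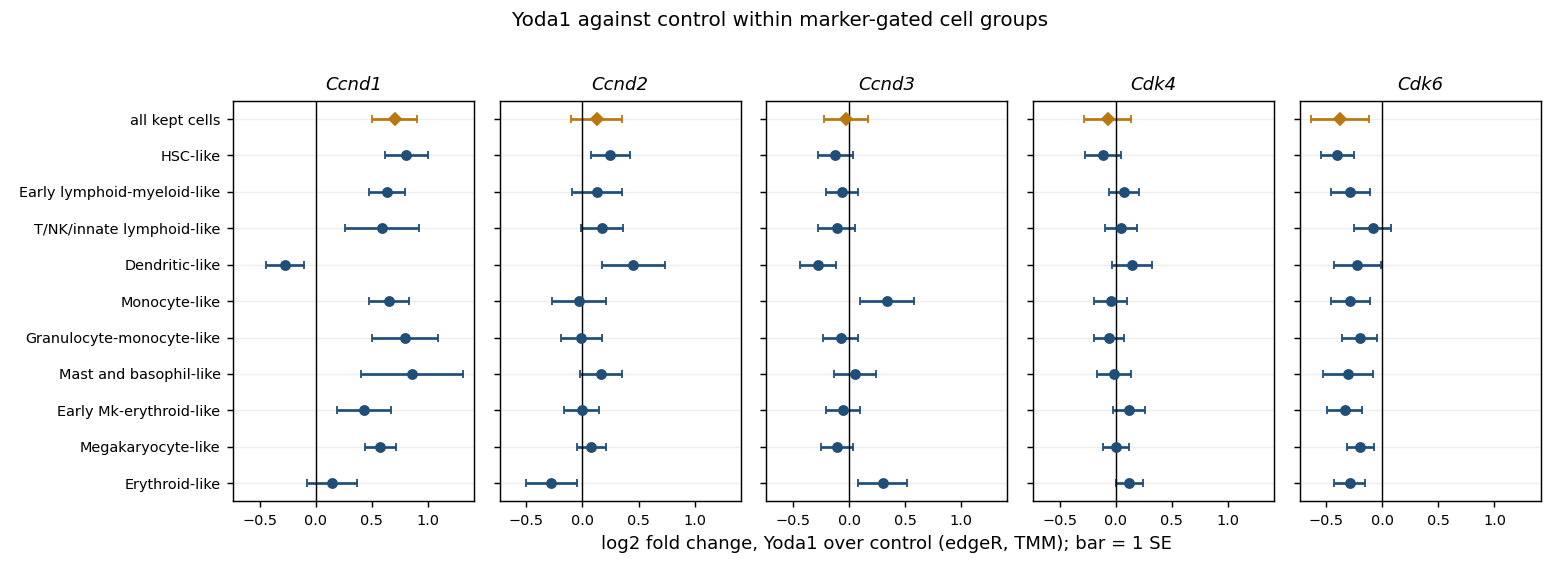
Log2 fold change of Yoda1 over control (edgeR with TMM, horizontal axis, bars 1 SE, 2 libraries per group) of each gene over all kept cells (diamond) and in the 10 marker-gated groups (circles). Ccnd1 lies right of 0 in all groups but dendritic-like cells, and Cdk6 lies left of 0 in all 10.

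The rest of the G1/S pathway was read from 8 lists of 55 genes. Over all cells and in both states, 53 passed the filter on low counts. Cdkn2a and Cdkn2b did not, at no more than 0.0674 CPM over all cells. Between cycling and non-cycling cells edgeR called 32 of the 53 higher and 11 lower, with a median log2 difference of 0.51 against -0.02 over all genes. The same fit called 30.9% of all genes higher and 29.3% lower, and the counts of each list are to be read against these shares. The states were set by Mki67 and Top2a, so calls of genes that vary with these 2 follow in part from that choice. All 6 genes of the list of cyclins E and A with their kinase were higher (median 2.00), among them Ccna2, cyclin A2 (4.11 ± 0.20). The smallest p belonged to Cks1b, the small subunit of these kinases, at 97.0, 92.4, 103 and 78.6 CPM in non-cycling and 300.5, 338, 317 and 309.7 CPM in cycling cells (1.95 ± 0.06, edgeR adjusted p = 7.89e-08). All 11 genes of the list of minichromosome maintenance genes and E2F targets were higher, among them Tk1, thymidine kinase (3.24 ± 0.12, edgeR adjusted p = 1.79e-07), and Ccnb1, the mitotic cyclin B1 (3.70 ± 0.14, edgeR adjusted p = 1.79e-07). Of the E2F family and partners 8 of 10 were higher, with Tfdp1, a dimer partner of E2F, at 0.97 ± 0.05 (edgeR adjusted p = 4.96e-07), and 2 lower.

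Of the genes upstream of the D cyclins, 5 of 8 were lower and 1 higher, and no difference between lists was tested. Mycn, a Myc family transcription factor, stood at 26.0, 35.9, 34.2 and 52.9 CPM in non-cycling and 9.73, 14.7, 10.8 and 25.3 CPM in cycling cells (-1.18 ± 0.08, edgeR adjusted p = 3.12e-06). Foxo3, which holds cells in quiescence, was at -0.45 ± 0.05 (edgeR adjusted p = 6.73e-05). Of the 5 CDK inhibitors tested, 2 were lower and 2 higher. Cdkn1b, p27, was at -0.47 ± 0.05 (edgeR adjusted p = 3.47e-05) and Cdkn1c, p57, at -1.16 ± 0.14 (edgeR adjusted p = 0.000126), while the INK4 genes Cdkn2c and Cdkn2d were higher. At equal depth Cdkn1b stood at 60.5 ± 16.1 CPM in cells with 0 Mki67 and Top2a UMIs, 41.2 ± 12.4 with 2 to 3 and 85.0 ± 21.9 with 8 or more, and the last exceeded the first in all 4 libraries. Of the pocket proteins Rbl1 was higher and Rbl2 lower, and Rb1 did not pass. The CDK-activating kinase list had 1 of 3 higher, and the list of genes for turnover of D cyclins and inhibitors had 2 of 7 higher and 1 lower.

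Between Yoda1 and control 0 of these 53 genes were called over all cells, in either state or in the test of treatment by state. In the 10 groups, where 51 to 53 of the 55 were tested, 0 were called. The median log2 fold change of the 53 over all cells was -0.05, against 0.01 over all genes. The smallest unadjusted p over all cells belonged to Cdkn1c, with 2.63, 3.56, 3.18 and 13.2 CPM. Its log2 fold change, 1.30 ± 0.56, rested on Yoda1 2, the library with the most HSC-like cells. In non-cycling cells Cdkn1c stood at 4.79, 5.93, 8.18 and 19.9 CPM. Stat5a, the cytokine-activated transcription factor, followed at 59.4, 49.1, 43.0 and 46.9 CPM (-0.32 ± 0.19), and Mycn at 12.7, 20.4, 15.2 and 35.4 CPM (0.54 ± 0.35), again with Yoda1 2 highest. In cycling cells the third gene was Cdk7, the kinase that activates other CDKs (-0.25 ± 0.15). In the test of treatment by state they were Cdkn1a (0.51 ± 0.15), Rb1 (0.30 ± 0.13) and E2f8 (0.83 ± 0.38). Over the groups they were Cdkn2c in dendritic-like cells (-0.98 ± 0.22), E2f7 in early lymphoid-myeloid-like cells (1.06 ± 0.29) and Ccnb1 in erythroid-like cells (0.38 ± 0.11), with none passing the adjustment.

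The genes most like each member were found by correlating levels over 40 points, the 10 groups in each of 4 libraries, with each library centred on its own mean, among 7926 genes. The points share libraries and gates, so the coefficients are descriptions. Ccnd1 was most like Ppfia4 (Pearson r 0.86), Kctd12 (0.84), Fgd2 (0.83), Plekho1 (0.82) and Psap (0.82). Ccnd2 was most like Rock2 (0.86), Nkapd1, Pds5b, Cpsf6 and Dgkz (0.83 to 0.85). Ccnd3 was most like Fyn (0.91), Myh9 (0.87), Fyb, Ndrg1 and Lat (0.85 to 0.86). Cdk4 was most like Mcm7 (0.89), a subunit of the replicative helicase, and Ppil1, Hsp90ab1, Emc8 and Nasp (0.84 to 0.88). Cdk6 had the loosest company, with Rfc2 (0.81), Haus3 (0.80), Cbx3, Hscb and Cenpq (0.76 to 0.77). Among themselves the 5 genes were only weakly alike, from -0.45 between Ccnd1 and Cdk6 to 0.40 between Ccnd2 and Ccnd3.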

How the data were processed

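Single-cell RNA-seq counts of LSK cells from 2 control and 2 Yoda1 libraries were used. The deposited matrices hold raw counts of UMIs per gene and barcode, written by Cell Ranger 7.1.0 per the file headers. Seurat 4.3.0 and 2 names of 1 mouse build, GRCm38 and mm10, are listed per the submitters' processing notes. Both 10x Genomics and a Singleron microwell chip appear in the labels, so the capture platform is unsettled, and the handling of intronic reads is not given in the sources used here. The members and the gene and marker lists were chosen with earlier results of these data known.

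A barcode counted as a cell from 500 genes and 1000 UMIs upward if mitochondrial UMIs did not exceed 10%, and no doublet caller was run. A cell's score for a list was the mean log2(1 + counts per 10000 UMIs) of its markers, standardized over cells. The cell joined the list with the highest score if that was at least 1 and led the next by at least 0.5. This scoring rule was set after the data had been seen. Levels are plain CPM, without TMM.

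Counts were summed per library and tested with edgeR 4.0.16 under R 4.3.3 (quasi-likelihood test, TMM, filterByExpr, Benjamini-Hochberg adjustment over all genes, threshold 0.05). All 5 members passed the filter in every main comparison. SE is the absolute log2 fold change divided by the square root of F. Fits were also run on counts simulated from fitted means and dispersions. These were drawn independently for each gene, so shifts shared by many genes of a library were not simulated, and nothing is read from that run. Alternatives were RLE normalization, DESeq2 1.42.0, no filter, other cell filters, thinning to 3000 UMIs, other state and gate limits, the replicate block, each library left out and, added later, leaving out the 5% of cells with the most UMIs and weighting the 10 groups equally. With 1 library left in a group, it was assumed to vary like the other group. Named genes are the 5 members, G1/S genes with an adjusted p under 0.05 (up to 4 per direction by smallest p, or 3 of smallest unadjusted p where none passed; the 10 groups count as 1 comparison), and the 5 genes most like each member. Other G1/S genes, Pcna and Ccna2 were named after their values were seen. Promoter sequences are from RefSeq (GRCm38.p6).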

Additional observations from a re-analysis of the deposited data

Results flagged for a closer look

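Every Yoda1 library was above both controls for Ccnd1 in 8 groups and below both in dendritic-like cells, and the difference between groups was not tested. Of all genes, 9.03% to 14.8% were higher in this way in these 8 groups, and 16% were lower in dendritic-like cells. The groups come from the same libraries and are no separate replicates. The log2 fold changes were 0.80 in HSC-like, 0.64 in early lymphoid-myeloid-like, 0.59 in T, NK and innate lymphoid-like, 0.65 in monocyte-like, 0.79 in granulocyte-monocyte-like, 0.86 in mast and basophil-like, 0.43 in early megakaryocyte-erythroid-like and 0.58 in megakaryocyte-like cells, against -0.28 in dendritic-like cells.

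Cycling and non-cycling cells differed in opposite directions between groups for 2 members, in all 4 libraries of each group, and these differences were not tested either. For Ccnd1 the log2 ratio of means, cycling over non-cycling, was 0.80 in T, NK and innate lymphoid-like cells, where non-cycling cells held 2, 8, 7 and 7 Ccnd1 UMIs, against -0.47 in early lymphoid-myeloid-like and -0.64 in megakaryocyte-like cells. For Cdk6 it was 0.39 in HSC-like and 0.34 in early lymphoid-myeloid-like cells against -0.14 in megakaryocyte-like cells. These ratios are plain CPM, and over all cells TMM placed this contrast 0.17 higher. The megakaryocyte-like value of Cdk6 is smaller than that shift, so its direction depends on scaling.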

How the results depend on the processing

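The log2 fold changes of Ccnd1 and Cdk6 over all cells kept their sign in all 12 alternative fits. Those of Ccnd2 and Cdk4 between cycling and non-cycling cells did so in all 13. On plain CPM neither the treatment groups nor the states overlapped for these genes, so leaving out 1 library could hardly turn the sign. The members were chosen with these values in view, and nothing is read from the kept signs. Counts of genes called moved with the tool and the library. DESeq2 called 5 genes over all cells, 12 in non-cycling and 6 in cycling cells, 4 for treatment by state and 56 summed over the groups, where edgeR called 0, 0, 0, 0 and 12. Without the filter on low counts edgeR called 315, 196, 114 and 916 in non-cycling cells, cycling cells, treatment by state and the groups. Thinning to 3000 UMIs gave 1 for treatment by state and 6257 in place of 9660 between states, with fewer genes tested, and a limit of 4 UMIs for cycling gave 1 for treatment by state. The replicate block gave 1 in cycling cells and 572 in the groups. Same-numbered libraries deviated together (r = 0.51 over 8378 genes), but with 2 pairs and no label tying them the numbers were not taken as pairs. Leaving out 1 library gave 0 to 938 calls over all cells, 0 to 232 in non-cycling and 0 to 826 in cycling cells, 5 to 266 for treatment by state and 37 to 1182 in the groups. The difference in cycling share ranged from -16.6 to 5.70 percentage points, turning positive at 1.40 without control 1 and 5.70 without Yoda1 2.

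The log2 of dendritic-like over erythroid-like Ccnd1, 3.55, was 3.81 with a stricter gate margin, 3.82 in non-cycling cells and 3.78 thinned; that of Ccnd3, megakaryocyte-like over granulocyte-monocyte-like, went from 1.37 to 1.47, 1.51 and 1.42; and that of Cdk6, early megakaryocyte-erythroid-like over dendritic-like, from 1.24 to 1.59 in non-cycling cells. Leaving out 1 library, the log2 fold change of Mycn in Yoda1 against control, all kept cells, ranged from -0.037 to 0.94, and that of Cdkn1c in Yoda1 against control, cycling cells, from -0.17 to 1.83; both were lowest without Yoda1 2. The cause of these shifts was not tested. Over all cells the members held 1894 to 64924 UMIs per library, but in the smaller groups Ccnd1 rested on as few as 13, which limits its fold changes there, and 2 libraries per group limit every treatment comparison.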
